A study of Homo sapiens with 4 samples.

Results

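The 200 brightest microRNA genes of these arrays are the subject here. They were taken from the 1069 measured genes whose symbol in the platform annotation begins with MIR and a digit or with MIRLET, leaving out host genes (symbols ending in HG) and MIR21, MIR221 and MIR222. The 200 with the highest mean log2 value over all 4 arrays were kept, so the levels below describe the choice and were not tested. The cells were LS411N-5FU-R, a 5-fluorouracil-resistant derivative of the human metastatic colon carcinoma line LS411N, and 5-fluorouracil is an antimetabolite drug given for this cancer. Control cells (0 nM, 2 arrays) received no verticillin A, and treated cells (2 arrays) received 50 nM of this fungal metabolite over 3 days. The title of the series concerns trimethylation of histone H3 lysine 9, silencing of FAS and drug resistance. Both groups were the resistant line, and its parent was not analysed here. Separate cultures are not stated for the replicates, and every p-value below therefore covers the spread between these arrays alone, which could be technical.

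A microRNA is cut from a hairpin in a longer primary transcript. Drosha with DGCR8 releases the hairpin in the nucleus and Dicer trims it to a short duplex, of which one strand is loaded into an Argonaute protein. Pairing of its seed, bases 2 to 8, with messenger RNA guides repression, and genes that share a seed are grouped as a family. Many hairpins lie within other genes and are transcribed with them. The labelled cDNA was made from total RNA by a whole-transcript protocol, so a value for a microRNA gene may come from its primary transcript, its host transcript or its precursor, and these cannot be told apart here. The values are therefore called microRNA gene levels, not mature microRNA levels.

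Sequences from the RefSeq table (GRCh38.p14) were matched by gene identifier for 179 of the 200 genes. A first set shows the hairpins of 5 genes that changed, with the listed mature sequences in capitals, to show what the probe sets are named for.
MIR3189: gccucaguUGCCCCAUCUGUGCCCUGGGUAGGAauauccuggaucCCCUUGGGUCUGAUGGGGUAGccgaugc
MIR31: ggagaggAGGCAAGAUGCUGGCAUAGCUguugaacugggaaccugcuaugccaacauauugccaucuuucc
MIR421: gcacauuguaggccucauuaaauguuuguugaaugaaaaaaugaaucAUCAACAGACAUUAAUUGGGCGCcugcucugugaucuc
MIR181B1: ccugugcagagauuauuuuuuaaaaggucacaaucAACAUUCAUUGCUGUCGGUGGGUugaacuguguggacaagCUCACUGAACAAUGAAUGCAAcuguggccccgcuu
MIR181D: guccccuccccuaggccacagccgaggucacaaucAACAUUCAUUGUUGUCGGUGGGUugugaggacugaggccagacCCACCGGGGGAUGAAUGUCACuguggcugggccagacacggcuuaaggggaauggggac
In GRCh38.p14 these hairpins lie at chr19:18386562-18386634 on the plus strand (MIR3189, within the span of GDF15), chr9:21512115-21512185 on the minus strand (MIR31, within MIR31HG), chrX:74218377-74218461 on the minus strand (MIR421, within FTX), chr1:198858873-198858982 on the minus strand (MIR181B1, within MIR181A1HG) and chr19:13874875-13875011 on the plus strand (MIR181D, within the span of NANOS3). Whether a hairpin is exonic or intronic in its host was not analysed here.

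A second set shows mature sequences of families with at least 2 of the 200 genes, with the seed in capitals.
hsa-miR-181b-5p: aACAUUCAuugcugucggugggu
hsa-miR-181d-5p: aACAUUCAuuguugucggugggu
hsa-miR-196b-5p: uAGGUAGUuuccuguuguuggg
hsa-miR-196a-5p: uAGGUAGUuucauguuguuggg
hsa-let-7a-5p: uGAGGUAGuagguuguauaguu
hsa-let-7g-5p: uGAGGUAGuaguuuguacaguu
hsa-let-7d-5p: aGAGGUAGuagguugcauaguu
hsa-miR-4500: uGAGGUAGuaguuucuu
hsa-miR-15a-5p: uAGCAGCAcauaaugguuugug
hsa-miR-15b-5p: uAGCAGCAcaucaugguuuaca
hsa-miR-16-5p: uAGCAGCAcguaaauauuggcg
hsa-miR-29a-3p: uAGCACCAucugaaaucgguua
hsa-miR-29b-3p: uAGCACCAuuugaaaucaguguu
hsa-miR-4295: cAGUGCAAuguuuuccuu
hsa-miR-301a-3p: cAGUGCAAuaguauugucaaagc
Counted from the 5′ end, miR-181b-5p and miR-181d-5p differ by C12U and miR-196b-5p and miR-196a-5p by C12A. The difference lies outside the seed in each pair. Over all 238 mature sequences read, from 174 genes, 10 seeds were shared by at least 2 genes, and 22 genes had a shared seed.

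The 4 arrays correlated at 0.997 within control, 0.998 within verticillin A and 0.993 to 0.994 between groups over all genes tested, which are not independent replicates. The typical distance between the 2 arrays of a group was larger for the 200 microRNA genes than over all genes. The median absolute difference between the control arrays was 0.18 against 0.10 over all genes, and between the verticillin A arrays 0.13 against 0.08 (log2 values). The 10 measured colon epithelial markers ranged from 3.55 to 11.13 over the arrays: EPCAM and KRT18 had mean log2 values of 11.03 and 10.40, while CDX1, CEACAM5, KRT20 and GPA33 lay between 3.61 and 4.64. In limma KRT19 rose and VIL1 fell with verticillin A. The 3 measured markers of endothelium and fibroblasts ranged from 3.38 to 4.02 over the arrays.

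Mean log2 levels of the 200 ran from 5.77 to 10.97, with a median of 6.80, and 191 lay above the median of all genes, 5.84. Only 38 exceeded 8 and 7 exceeded 10. Probe sets differ in how strongly their probes bind, so this order ranks probe sets and does not order RNA amounts. The last genes inside the limit were MIR4522, MIR3189 and MIR3622A at 5.79, 5.79 and 5.77, and the first outside were MIR4635, MIR4427 and MIR4489 at 5.76, 5.76 and 5.74. For the following counts, families were grouped by gene symbol, not by seed. Some well-known families had no gene among the 200: the miR-17 family and its clusters (0 of 9 measured), miR-200 (0 of 5), the intestinal miR-192, miR-194 and miR-215 genes (0 of 4) and miR-34 (0 of 3). Of the families listed, the repeat-derived miR-548 genes gave the most, 14 of 40 measured.

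**Figure D1:**
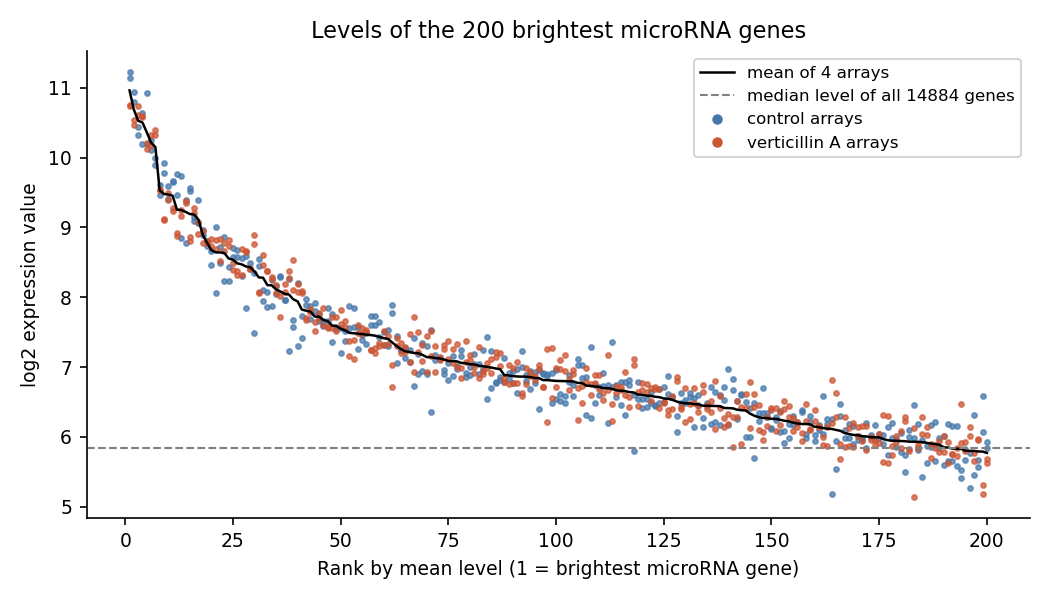
Log2 expression value on each of the 4 arrays (points) and mean of the arrays (line) against rank for the 200 brightest microRNA genes, with the median of all genes dashed. The curve falls from 10.97 to 5.77, and 191 of the 200 means lie above the dashed line at 5.84.

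The 10 brightest genes were MIR5047, MIR4737, MIR2909, MIR570, MIRLET7A2, MIR644A, MIR1204, MIR590, MIR196B and MIR548K. MIR5047 lies within DDX5, the gene of an RNA helicase that works with Drosha. Its log2 values were 11.14 and 11.23 in control and 10.76 and 10.74 with verticillin A. The treated arrays were both lower, and MIR5047 fell by 0.44 ± 0.07 (log2 change ± SE, limma adjusted p = 0.0286). DDX5 itself had a log2 change of -0.12 ± 0.07 and did not pass (adjusted p = 0.395). MIR4737, whose span overlaps HEATR6, was at 10.80 and 10.95 in control and 10.54 and 10.47 with verticillin A. These groups did not overlap either, but the change of -0.37 ± 0.08 missed the threshold (limma adjusted p = 0.0525). MIR2909, within the apoptosis-related gene AATF, was at 10.33 and 10.44 against 10.61 and 10.74 (log2 change 0.29 ± 0.08, limma adjusted p = 0.096). MIRLET7A2, a let-7 gene within MIR100HG, was at 10.93 and 10.20 in control and 10.21 and 10.12 treated, so 1 control array stood apart and the other lay within the treated range. MIR570, MIR644A, MIR590 and MIR548K had log2 changes between -0.05 and 0.18, each with overlapping groups.

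Some of the 200 differed between the verticillin A and control arrays, in each direction. In limma, 12 rose and 13 fell (adjusted p under 0.05, adjusted over all 14884 genes), which is 12.5% of the 200. Over all genes 8.65% were called, 3.55% higher and 5.1% lower, beside 6% and 6.5% among the 200. Among the other 869 microRNA genes, which are dimmer, 8 rose and 21 fell (3.34%). Whether these shares differ was not tested. An unadjusted p under 0.05 was reached by 69 of the 200 (34.5%), against 26.7% of all genes. The treated arrays lay beyond both control arrays in 97 (49 higher, 48 lower), or 48.5%, against 54.8% of all genes (25.7% higher, 29.1% lower). The median log2 change was 0.03 for the 200 and -0.01 for all genes, and the median absolute change 0.20 and 0.12. The calls rested on all 4 arrays: limma called 0 of the 200 without control replicate 1 and 0 without control replicate 2 (83 and 75 at an unadjusted p under 0.05), and 1 higher and 2 lower without either verticillin A replicate. With p adjusted over all 53617 probe sets of the table, named or not, limma called 0 of the 200 (61 at an unadjusted p under 0.05, smallest adjusted p 0.0659). Over all genes 0.121% were called then. On leaving out 1 array, calls over all genes were likewise nearly all lost, so this loss is not particular to the 200.

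**Figure D2:**
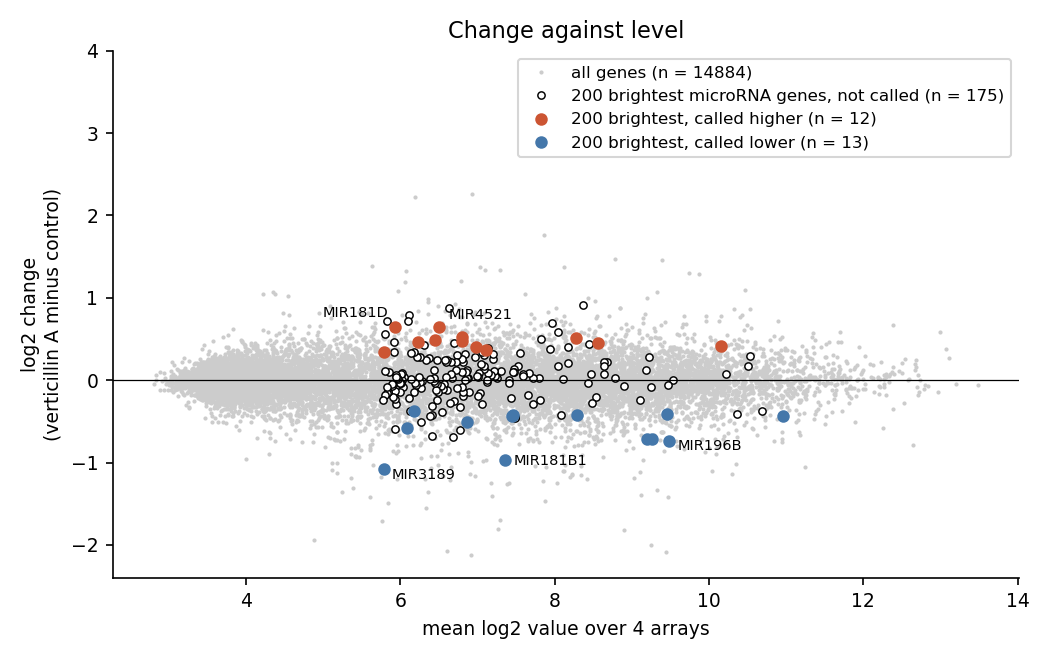
Log2 change (verticillin A minus control) against mean log2 value for all genes (grey) and the 200 brightest microRNA genes (open, not called; red, called higher; blue, called lower). Called microRNA genes have means from 5.79 to 10.97, and the 2 deepest falls are MIR3189 (-1.08) and MIR181B1 (-0.97).

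Among the falls, that of MIR3189 was the deepest. Its values were 6.59 and 6.07 in control and 5.19 and 5.31 with verticillin A. Both treated arrays lay below both control arrays, and the level was 2.11-fold lower (log2 change -1.08 ± 0.17, limma adjusted p = 0.0282). The control arrays of MIR3189 differed by 0.52, the largest gap among the 25 called genes. The fall was 0.82 without control replicate 1 and 1.34 without control replicate 2. MIR3189 lies within GDF15, which encodes a stress-induced cytokine.

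MIR181B1, a gene of the miR-181 family known from lymphocyte development, was at 7.78 and 7.89 in control and 7.03 and 6.71 with verticillin A. The groups were well apart, and the level was 1.96-fold lower (log2 change -0.97 ± 0.12, limma adjusted p = 0.0167). MIR181D belongs to the same family and moved the other way. Its values were 5.49 and 5.74 in control and 6.29 and 6.23 with verticillin A, a 1.56-fold rise (log2 change 0.65 ± 0.10, adjusted p = 0.0258). The mature sequences of this pair share the seed printed above, and the genes lie on chromosomes 1 and 19.

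MIR196B lies in the HOXA cluster, whose genes set position along the body axis, and miR-196 is known to target HOX transcripts. Its log2 values were 9.78 and 9.93 in control and 9.10 and 9.11 with verticillin A, a 1.67-fold lower level (limma adjusted p = 0.0125). HOXA10-AS, whose span overlaps MIR196B, fell by 0.62 ± 0.08 (limma adjusted p = 0.0164). MIR196A1, the family member on chromosome 17, was at 6.35 and 6.70 in control and 5.96 and 6.07 treated. These groups did not overlap, but the change of -0.51 ± 0.13 missed the threshold (adjusted p = 0.0735).

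MIR31, whose mature product is often raised in colorectal tumours, was at 9.46 and 9.76 in control and 8.87 and 8.93 with verticillin A. All treated values were below all control values, and the level was 1.64-fold lower (limma adjusted p = 0.0267). Its host MIR31HG, a long non-coding RNA (lncRNA), was at 7.50 and 7.81 against 6.97 and 6.76. MIR31HG thus fell by 0.79 ± 0.13 (limma adjusted p = 0.0296), beside 0.71 ± 0.11 for MIR31.

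MIR421 and MIR545 both lie within FTX, a lncRNA gene of the X-inactivation region. MIR421 was at 9.53 and 9.57 in control and 8.87 and 8.81 with verticillin A. This was the smallest adjusted p among the 200 (0.011), with a log2 change of -0.71 ± 0.07. MIR545 was at 6.83 and 6.67 against 5.86 and 6.28, a change of -0.68 ± 0.15 that missed the threshold (limma adjusted p = 0.0552).

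The other falls were smaller. MIR361, within the Rab escort protein gene CHM, fell by 0.58 ± 0.11 on the log2 scale, and MIR3605, within the Polycomb gene PHC2, was 1.42-fold lower. MIR3671, within the cytokine receptor kinase gene JAK1, and MIR4324, within SLC6A16, were 1.35-fold and 1.32-fold lower. MIR548I1 and MIR548I2 were 1.35-fold and 1.34-fold lower. Their values differed by at most 0.05 on any array, and as copies of one multicopy group their RNA may not be separable by these probes. A second probe set of MIR548I2 had a change of 0.18. With probe sets averaged the changes were -0.12 for MIR548I2 and -0.29 for MIR548I1. Both lost their calls then, and also under median centring and quantile normalization. MIR23B, of the cluster with MIR27B, was at 6.35 and 6.39 in control and 5.95 and 6.05 treated (log2 change -0.37 ± 0.07, limma adjusted p = 0.0411). Its neighbour MIR27B was at 6.87 and 6.61 against 6.39 and 6.31, with a similar change of -0.39 ± 0.10 that did not pass (limma adjusted p = 0.0801).

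Besides MIR181D, 11 genes rose, by 1.26-fold to 1.56-fold. MIR4521, whose span overlaps the transfer RNA gene TRS-GCT4-3, was at 6.06 and 6.30 in control and 6.79 and 6.86 with verticillin A (1.56-fold, limma adjusted p = 0.0257). It has a second, dimmer probe set with a change of 0.17, and averaging the probe sets gave 0.41 in place of 0.64 and kept the call. MIR637, within the kinase gene DAPK3, rose 1.44-fold and MIR3907, within CRYGN, 1.42-fold. MIR924, within MIR924HG, rose 1.40-fold, MIR4796, within the transcriptional repressor gene ZBTB20, 1.39-fold and MIR4710 1.37-fold. MIR4295, within the SNARE gene VTI1A, rose 1.36-fold, and MIR573 and MIR4533 rose 1.32-fold and 1.29-fold. MIR4522 rose 1.26-fold. Calls were lost with probe sets averaged for MIR4710 and MIR4533, under quantile normalization for MIR4295, and with a trended or robust prior for MIR4522. MIR1204, the brightest gene that rose, lies within the span of PVT1, a lncRNA gene beside MYC. Its values were 9.99 and 9.90 in control and 10.39 and 10.33 treated (1.33-fold, limma adjusted p = 0.0336). The other genes within PVT1 did not pass: MIR1206 had a log2 change of 0.44 ± 0.23, MIR1207 of -0.02 ± 0.12 and MIR1205 of -0.23 ± 0.07.

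**Figure D3:**
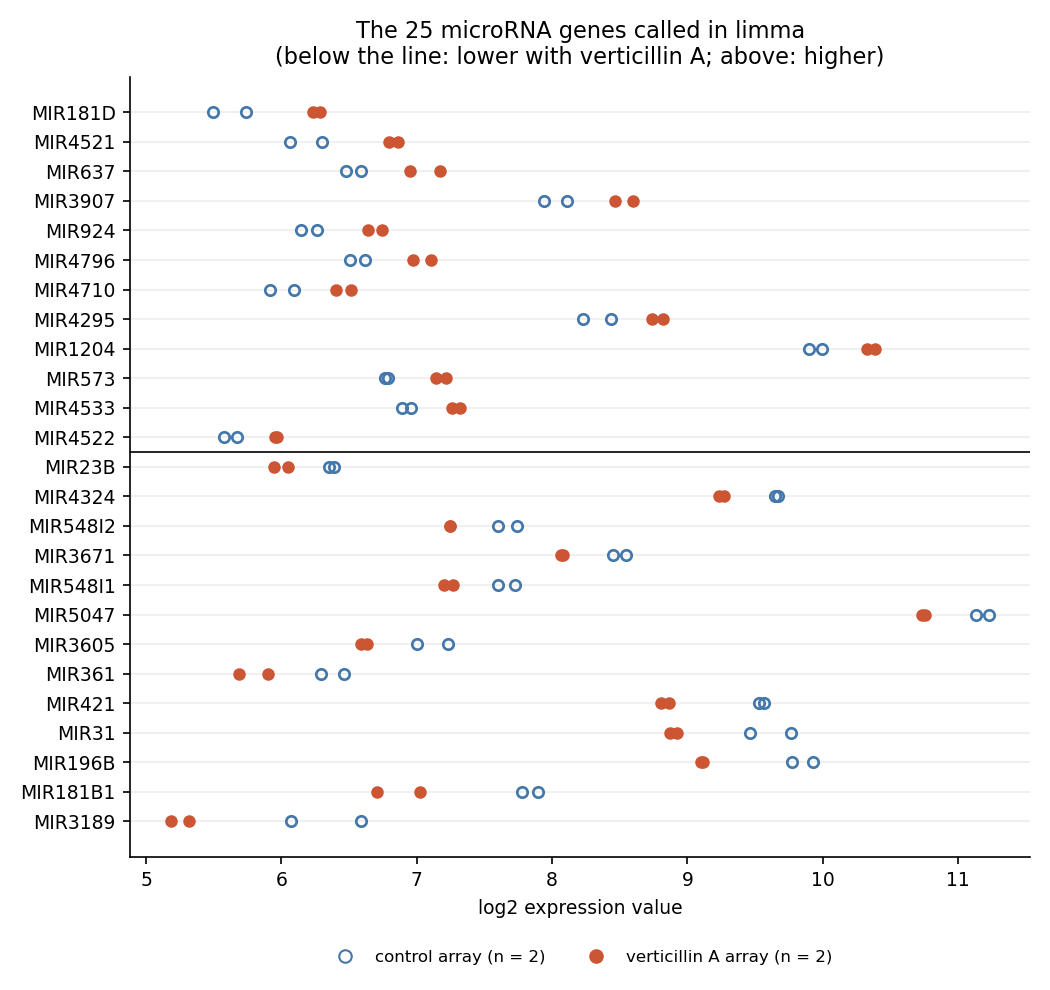
Log2 expression value on each array for the 25 called microRNA genes (open blue, control; filled red, verticillin A; n = 2 per group), ordered by change. The 13 genes below the line are lower with verticillin A and the 12 above it higher, and in no row do the groups overlap.

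The let-7 family, known as a brake on growth genes, had 4 genes among the 200, of 11 measured with miR-98, and MIR4500 shares the let-7 seed. Log2 changes of these were -0.41 ± 0.23 (MIRLET7A2), -0.12 ± 0.12 (MIRLET7G), 0.27 ± 0.18 (MIRLET7D), -0.04 ± 0.08 (MIRLET7A3) and -0.21 ± 0.13 (MIR4500), and 0 passed in limma. Their groups overlapped for MIRLET7G, MIRLET7D, MIRLET7A3 and MIR4500, and for MIRLET7A2 the treated array at 10.21 lay just above the lower control array at 10.20.

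Of the miR-15/16 genes, whose products are known to target BCL2, MIR15A within DLEU2 was at 8.30 and 8.29 in control and 8.02 and 7.72 treated. The treated arrays were both lower, with a change of -0.43 ± 0.11 that missed the threshold (limma adjusted p = 0.076). MIR16-2 and MIR15B, neighbours within the condensin gene SMC4, had changes of -0.24 ± 0.10 and -0.03 ± 0.07. MIR29A, whose product targets collagen and DNA methyltransferase transcripts, was at 7.87 and 7.55 against 7.16 and 7.37 (change -0.45 ± 0.13, limma adjusted p = 0.102), and its neighbour MIR29B1 had a change of -0.14 ± 0.20. MIR30E, within NFYC, changed by -0.60 ± 0.16 (limma adjusted p = 0.0783) and MIR7-1, within HNRNPK, by -0.14 ± 0.09. In the pair with the seed of miR-301a, MIR4295 rose, and MIR301A, within SKA2, had a change of 0.12 ± 0.09. In the pair MIR32 and MIR92B the changes were -0.20 ± 0.08 and 0.10 ± 0.16.

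**Figure D4:**
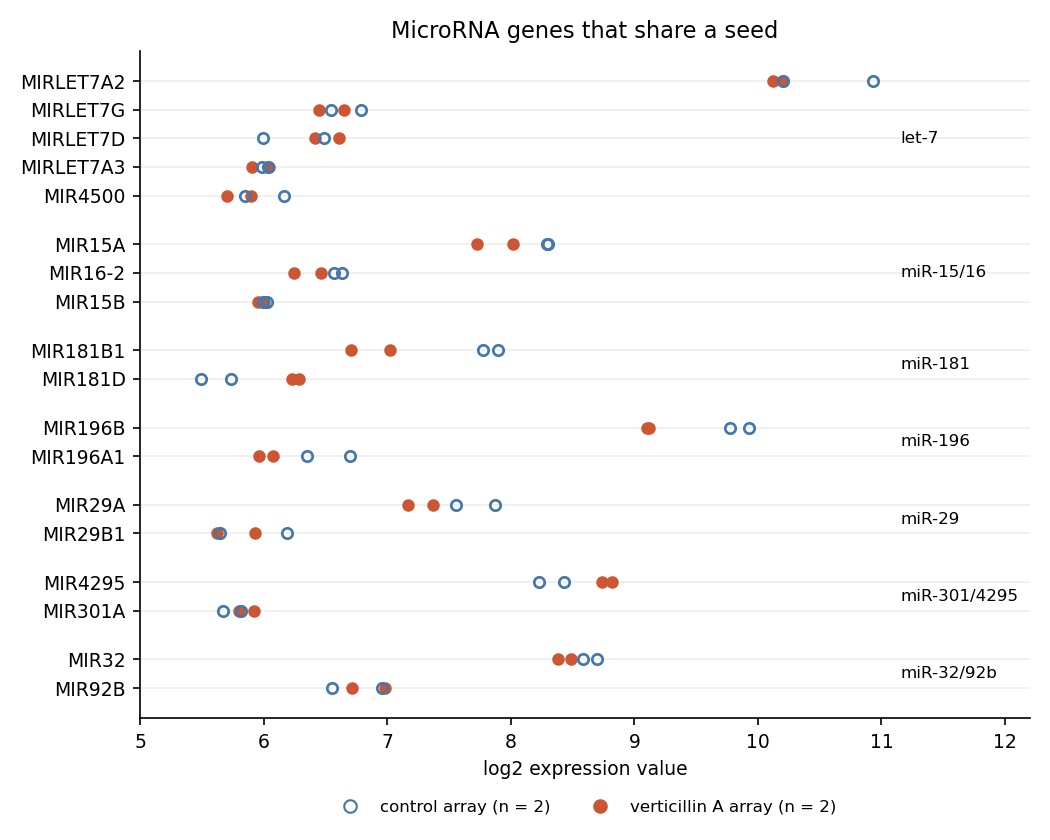
Log2 expression value on each array for microRNA genes that share a seed, grouped by family (open blue, control; filled red, verticillin A; n = 2 per group). The miR-181 genes move apart, the miR-196 genes are both lower when treated, and the groups of MIRLET7A2, MIRLET7G, MIRLET7D, MIRLET7A3, MIR4500, MIR29B1, MIR15B, MIR301A and MIR92B overlap.

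The miR-548 genes descend from a transposable element and are alike in sequence, but the seeds read for them here differed from one another. Of the 14, MIR548I1 and MIR548I2 fell and 0 rose, while 9 changes were positive, with a median of 0.19. The share called was 14.3%, beside 12.4% of the rest of the 200 and 8.65% of all genes. Control replicate 1 was the brighter control array in 12 of the 14, against 116 of all 200. MIR548C, within RASSF3, was at 8.26 and 7.23 in control and 8.38 and 8.28 treated, so that the control arrays lay 1.03 apart. Similar gaps were seen in MIR891A (7.53 and 6.36 in control) and MIR4451 (6.25 and 5.18 in control), and in MIR4299 between the treated arrays (6.21 and 7.27). A gap over 0.5 was found between the control arrays in 33 of the 200 genes and between the treated arrays in 13. MIR568, within ZBTB20, had one of the larger changes (0.91 ± 0.27) but did not pass, with control values of 8.35 and 7.49 and treated values of 8.76 and 8.89. The part of array quality in these gaps was not tested.

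Most of the 200 lie within other genes. By the RefSeq gene table, 165 overlapped a gene other than a microRNA gene, 8 of them a gene on the opposite strand only, 32 a gene where a strand is not given in the tables used, and the rest a gene on the same strand; 35 overlapped none. On the same strand, 111 overlapped a protein-coding gene, with 5 called higher and 8 lower in limma, and 14 a lncRNA gene only, with 2 higher and 3 lower. The 35 without such an overlap held 3 higher and 1 lower. These are shares called of 11.7%, 35.7% and 11.4%, beside 12.5% of the 200 and 8.65% of all genes, and differences between the classes were not tested. Neighbours within 10 kb formed 4 pairs, MIR15B with MIR16-2, MIR29A with MIR29B1, MIR23B with MIR27B and MIR3689A with MIR3689F, and no larger cluster.

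A measured same-strand host was found for 87 of the 200, in 88 pairs with 84 hosts. MicroRNA gene and host were called together in 5 pairs, each in the same direction: MIR31 with MIR31HG, MIR3671 with JAK1, MIR3605 with PHC2, MIR4796 with ZBTB20 and MIR3189 with GDF15. JAK1 fell by 0.41 ± 0.07 and PHC2 by 0.39 ± 0.07 on the log2 scale, close to the falls of their microRNA genes, 0.43 and 0.50. GDF15 was at 11.57 and 11.64 in control and 11.11 and 11.16 with verticillin A, a fall of 0.47 ± 0.07 beside 1.08 ± 0.17 for MIR3189. ZBTB20 rose by 0.36 ± 0.07, and its other microRNA gene, MIR568, did not pass.

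In 7 pairs only the microRNA gene was called and in 10 only the host. In all, the microRNA gene was called in 12 of the 88 pairs and the host in 15, while 8.65% of all genes were called. Whether joint calls exceeded what such shares would give was not tested. MAP1B, a microtubule-associated protein gene, was at 8.90 and 8.83 in control and 7.79 and 7.86 treated (2.06-fold lower, limma adjusted p = 0.0063). MIR4803 within it was at 6.14 and 5.74 against 6.30 and 5.63, a change of 0.02 ± 0.25 with overlapping groups. FOXP1, a transcription factor gene, fell by 0.64 ± 0.07, beside 0.06 ± 0.08 for MIR1284. MIR181B1 fell while MIR181A1HG had a change of -0.42 ± 0.11 (limma adjusted p = 0.0702), and MIR23B fell while AOPEP had one of 0.04 ± 0.08. The difference between the changes of microRNA gene and host was then tested in limma over the 302 same-strand pairs of all measured microRNA genes, a test added after the values were seen. It called 2.32% of the 302 and 0 of the 88 pairs here (15 at an unadjusted p under 0.05, smallest adjusted p 0.0883). For MIR4803 and MAP1B the difference was 1.06 ± 0.26 and for MIR1284 and FOXP1 0.70 ± 0.16, both with that adjusted p. The same adjusted p was reached by MIR4774 with CERS6 (0.82 ± 0.20) and MIR1296 with JMJD1C (0.67 ± 0.16). In these pairs the changes had opposite signs, 0.71 and -0.11 for the first and 0.28 and -0.39 for the second.

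Over the 88 pairs the changes had the same sign in 49 (55.7%). Pearson's r between them was 0.46 and Spearman's rho 0.37. This is a description across genes that share the same 4 arrays and, within a pair, may share transcript, so genes are not independent replicates. Over the 214 pairs of the other microRNA genes the same r was 0.23. The GC share of the hairpin, known for 152 of the 200, ran from 24.1% to 80% and had a Pearson's r of 0.04 with the log2 change across genes.

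**Figure D5:**
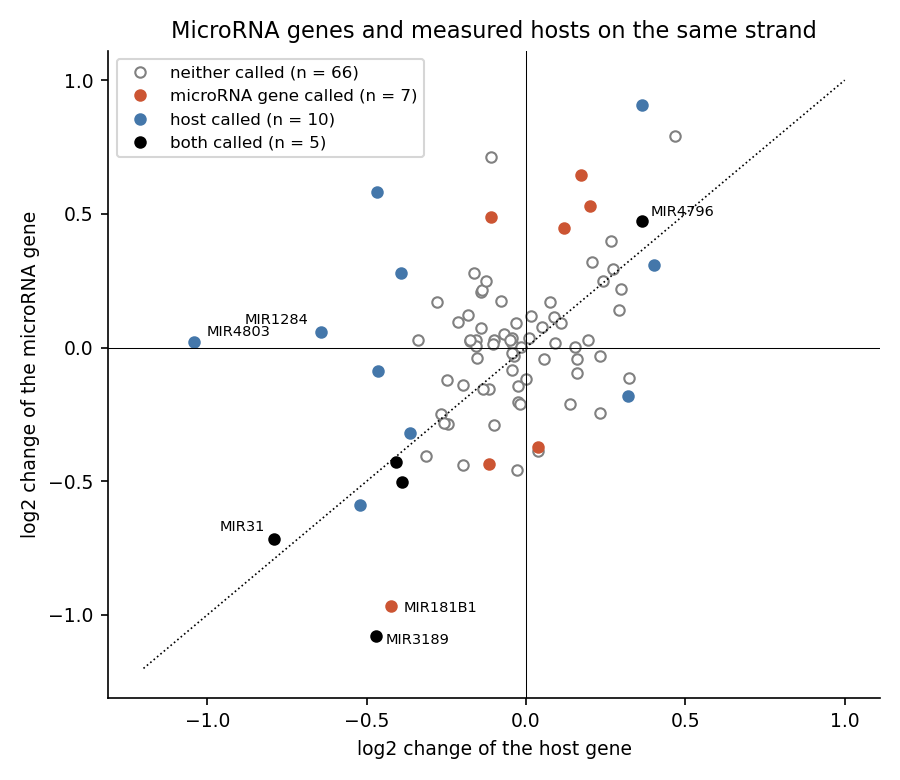
Log2 change of the microRNA gene against that of its measured same-strand host for 88 pairs, with equal changes on the dotted line (grey, neither called; red, microRNA gene called; blue, host called; black, both called). The 5 black pairs lie in the quadrants of equal sign, while MIR4803 and MIR1284 lie near 0 beside hosts that fell by 1.04 and 0.64.

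For the genes of the microRNA pathway, counts of calls in lists this short are read beside the share over all genes. DROSHA, DICER1 and the Argonaute genes were listed but were not among the measured genes, so the counts do not cover them. Of 13 measured processing genes of 23 listed, 0 passed in limma, with 1 at an unadjusted p under 0.05 (8.65% and 26.7% over all genes), and their median log2 change was 0.002 beside -0.01 for all genes. DDX17, a helicase partner of Drosha, had a change of -0.30 ± 0.07 (limma adjusted p = 0.0651), the Dicer partner gene TARBP2 one of 0.22 ± 0.09, SRRT one of 0.17 ± 0.08 and DDX5 the value given above. Of 13 measured effector genes of 28 listed, which act with Argonaute in repression and decay, 0 passed in limma (3 at an unadjusted p under 0.05, median 0.01). The decapping enzyme gene DCP2 came closest, with 0.34 ± 0.07 (limma adjusted p = 0.0515). After median centring or quantile normalization 1 effector gene was called higher, while 9.53% and 9.47% of all genes were called. PAN3, of a deadenylase complex, had a change of -0.29 ± 0.07, TNRC6A, a GW182 protein gene, one of 0.20 ± 0.10, and the decapping scaffold gene EDC4 one of 0.18 ± 0.07. Of 11 measured microRNA host lncRNA genes of 20 listed, MIR4435-2HG rose 1.45-fold (limma adjusted p = 0.018) and MIR31HG fell, 18.2% of the 11 beside 8.65% of all genes. An unadjusted limma p under 0.05 was reached by 8 of the 11 (72.7%), against 26.7% of all genes. The groups did not overlap in 100% of the 11, against 54.8% of all genes. Whether these shares differ was not tested. MIR210HG had the largest change that did not pass, 0.50 ± 0.11 (limma adjusted p = 0.0552). MIR17HG, the host of the miR-17 cluster, had a change of -0.29 ± 0.10 (limma adjusted p = 0.153).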

How the data were processed

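RNA was labelled as biotinylated cDNA, from 250 ng, by a whole-transcript kit for Affymetrix arrays, per the labels' protocols. The authors deposited log2 values per probe set, made with GCRMA per the submitters' processing notes (background correction, normalization between arrays and probe summary); its version is not given in the sources used, nor is a genome build. A normalization that equalises arrays would hide a change in total RNA, and no detection calls were used, so dim values cannot be told from background. Of 53617 probe sets, 16098 carry 1 gene symbol, giving 14884 genes; the probe set with the highest mean represents a gene (31 of the 200 have several, and in 14 of these their changes differ in sign). The treatment effect was fitted by limma 3.58.1 under R 4.3.3 (eBayes with a constant prior, 2 residual and 3.43 prior degrees of freedom), with Benjamini-Hochberg adjustment over all genes; SE is the moderated one. The fitting step was tested on simulated data. For a single gene, an exact two-sided permutation test of 2 against 2 arrays cannot go below 0.333. Overlaps with other genes, gene names and sequences come from RefSeq tables (GRCh38.p14) handled in Python 3.11.15.

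Members and lists were chosen with earlier results of these data known. Named were called genes (up to 15 each way) with their hosts, the 10 brightest, 3 on either side of the limit, up to 4 per family, pairs within 10 kb, the widest gaps, and pathway genes called or, where none passed, the 4 with the largest change. Hosts not called, uncalled genes beside a called one and pairs with the smallest adjusted p were added after their values were seen. Alternatives covered scaling, probe set choice, a filter, the prior, the replicate number as a block and leaving out each array.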

Additional observations from a re-analysis of the deposited data

How the results depend on the processing

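With 2 arrays per group, precision is limited by their number. The counts of 12 higher and 13 lower genes moved to 26 and 28 without the dimmest 50% of genes (fewer genes adjusted over, 191 of the 200 tested). They were 19 and 25 with an intensity-trended prior, 4 and 5 with the replicate block and 0 and 0 adjusted over all probe sets. In that order, 28.3%, 22%, 4.5% and 0% of those tested were called, beside 32.2%, 16.3%, 3.98% and 0.121% of all genes tested. Without the dimmest 50% the share of these microRNA genes was thus below that of all genes, while in the main fit it was above. Whether such shares differ was not tested. Leaving out 1 array gave 0 to 1 higher and 0 to 2 lower. The 100 brightest microRNA genes held 5 higher and 10 lower, and all 1069 held 20 higher and 34 lower. In the main fit 18% of ranks 1 to 50 and 12% of ranks 51 to 100 were called. Of the 869 microRNA genes outside the 200, 3.34% were called, beside 8.65% of all genes. Counts stayed within 1.5 times of 12 and 13 under median centring, quantile normalization, averaged probe sets and a robust prior, where 21 to 24 of the 25 genes kept their calls. All 25 kept their direction under every alternative in which they were tested. Same-numbered arrays of the 2 groups hardly deviated together (correlation 0.0124 over genes), so the numbers are not taken as pairs; with the replicate block 8 of the 25 kept their calls. Among pathway genes, 1 effector gene was higher under median centring, quantile normalization and the filter, and 2 with the trended prior. Under the filter and the trended prior, 1 effector gene and 1 processing gene were lower. Of all genes tested, 9.53% were called under median centring and 9.47% under quantile normalization. The filter gave 32.2% and the trended prior 16.3%. Host lncRNA genes had 2 higher under median centring, quantile normalization and the trended prior, 0 lower with the replicate block, 0 each way adjusted over all probe sets, and 0 to 0 each way on leaving out 1 array. The cause was not tested.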

Other observations

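Among the 869 dimmer microRNA genes, limma called 29, and the 2 with the largest change in each direction and MIR200C are given here, chosen after their values were seen. MIR3115 fell by 1.09 ± 0.15 and MIR197 by 0.96 ± 0.20 (log2 change ± SE), and MIR608 and MIR328 rose by 0.82 ± 0.07 and 0.81 ± 0.07. MIR200C, of the epithelial miR-200 family, fell by 0.54 ± 0.08 (limma adjusted p = 0.0208). MIR608 was the brightest of these, with a mean of 5.59, below those of the 200.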
